A study of Mus musculus with 2 samples.

Results

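MHC class II molecules and their transcriptional activator were followed here as 7 genes: the invariant chain gene Cd74, the peptide-binding chain genes H2-Aa, H2-Ab1 and H2-Eb1, the peptide-loading genes H2-DMa and H2-DMb1, and Ciita. They are 7 of the 32285 genes in the deposited tables, and all 7 were found. The genes were picked because their RNA differed between the libraries below in small and large barcodes and in barcodes with and without Kupffer cell markers. Those values are therefore a description of the libraries, and no test was made on them. All 7 had reads in both libraries. Comparisons over all genes asked for 20 UMIs over both libraries, which all 7 reached except where stated.

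The data are 2 single-cell RNA libraries of mouse liver, each from 1 mouse. Both mice carried floxed alleles of Glul, the glutamine synthetase gene, and no tumours, and were 11 weeks old at infection with an adeno-associated virus of serotype 8. The control mouse received AAV8-GFP and the other received AAV8-Cre to delete Glul, giving the GS_KO library. Livers were digested with collagenase II at 0.3 mg/mL at 2 weeks after the virus, and hepatocytes and purified non-parenchymal cells entered a 10x Genomics 5-prime library. The promoter that drives Cre, and the mouse strain with its class II haplotype, are not given in the sources used here, and the labels describe the assay both as single-cell and as single-nucleus.

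MHC class II proteins are pairs of an alpha and a beta chain that display peptides from ingested protein to CD4+ T cells. The invariant chain holds the new pair together and fills its groove until endosomal proteases cut it away, and the H2-DM pair then exchanges the remaining fragment for a peptide. CIITA does not bind DNA itself: it docks on factors at the X and Y boxes of class II promoters and switches the genes on together, constitutively in dendritic cells and B cells and after interferon gamma in macrophages. In the liver, Kupffer cells, the resident macrophages of the sinusoids, are among the cells that carry class II, whereas healthy hepatocytes have very little.

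Because the members share an activator that works through their promoters, the 150 bases before the RefSeq start (GRCm38.p6) are shown for the 3 members whose windows held the searched letters near the start, with H2-DMb2 for comparison. Each is written 5′ to 3′ on the strand of the gene, and capitals mark matches to the core of the X box, the Y box core ATTGG (or CCAAT on the other strand) and the cyclic AMP response element TGACGTCA.
H2-DMb1, chr17:34153041-34153190, plus strand: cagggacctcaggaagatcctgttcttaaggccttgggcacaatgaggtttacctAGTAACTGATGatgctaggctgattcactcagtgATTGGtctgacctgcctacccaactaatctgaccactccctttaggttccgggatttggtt
H2-Eb1, chr17:34305717-34305866, plus strand: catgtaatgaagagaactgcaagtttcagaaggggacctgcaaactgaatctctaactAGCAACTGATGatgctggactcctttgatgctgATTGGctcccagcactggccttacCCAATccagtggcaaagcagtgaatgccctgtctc
H2-Aa, chr17:34287824-34287973, minus strand: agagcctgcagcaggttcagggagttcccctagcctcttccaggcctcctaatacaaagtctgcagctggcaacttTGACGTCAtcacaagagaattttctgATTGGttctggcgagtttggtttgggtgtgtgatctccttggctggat
H2-DMb2, chr17:34145099-34145248, plus strand: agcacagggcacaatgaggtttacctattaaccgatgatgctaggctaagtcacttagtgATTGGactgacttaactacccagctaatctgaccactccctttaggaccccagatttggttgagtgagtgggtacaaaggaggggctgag

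In H2-DMb1 the X box core began 95 bases before the start and the Y box core 61 bases before it, with 23 bases between them. In H2-Eb1 they began 92 and 59 bases before the start, with 22 bases between them. H2-Aa held a Y box core 48 bases before the start and TGACGTCA 74 bases before it, and no match to the X box core as spelled. The last motif was added after the sequence had been seen. Over 32851 RefSeq windows of 300 bases, searched on both strands, the X box core was found in 0.968%, the Y box core in 37.4%, both in 0.387%, and TGACGTCA in 1.79%. H2-DMa has 2 windows, with no X box core, and 1 of them held a Y box core 198 bases before the start. Windows were listed for 4 of the 7 members. Cd74, H2-Ab1 and Ciita were not in the table. A match is a description of letters, not of a bound site.

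Ciita (ENSMUSG00000022504) lies on chr16:10480059-10528418 of mm10 and Cd74 (ENSMUSG00000024610) on chr18:60803848-60812652. The other 5 lie within the class II region of chromosome 17. H2-DMa (ENSMUSG00000037649) is at chr17:34119541-34139101, H2-DMb1 (ENSMUSG00000079547) at chr17:34153072-34160230 and H2-Ab1 (ENSMUSG00000073421) at chr17:34257689-34269419. H2-Aa (ENSMUSG00000036594) is at chr17:34282744-34287823 on the minus strand and H2-Eb1 (ENSMUSG00000060586) at chr17:34305867-34316674. All 7 are annotated as protein-coding in GENCODE, and only H2-Aa is on the minus strand. H2-DMb1 lies beside its near-identical copy H2-DMb2 (chr17:34143307-34151555), so the split of reads between these copies is uncertain.

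The control table held 166037 barcodes and 61635695 UMIs (unique molecular identifiers, each standing for 1 counted RNA molecule), and that of GS_KO 175937 barcodes and 57973740 UMIs, with medians of 352 and 304 UMIs per barcode. Barcodes of at least 500 UMIs numbered 13692 and 11871, and those of at least 1000 UMIs 1703 and 1834. The libraries shared 8108 barcode sequences, 65 of them at 500 UMIs or more. Glul, the targeted gene, was at 113 CPM (counts per 1000000 UMIs of the summed barcodes) in control and 9.78 CPM in GS_KO barcodes of 200 to under 400 UMIs. With 1 mouse per group there is no replicate, no test between conditions and no p-value. Every interval below is an exact 95% interval for counting error alone (Poisson for a level, conditional for a ratio, Clopper-Pearson for a share), and differences between mice, digestions and library preparations cannot be told apart from the deletion. UMIs were counted from the 5-prime end and not divided by length, so levels are compared within a gene, and the ratio of one gene to another only between sets of barcodes.

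The small barcodes of 200 to under 400 UMIs, 116552 of the control mouse and 143687 of the GS_KO mouse, served as a bulk sample of the RNA in each digest, and class II RNA was many times higher in the GS_KO library. Cd74 stood at 24.8 CPM (944 UMIs) in control and 827 CPM (35591 UMIs) in GS_KO. That is 33.4-fold higher (31.3 to 35.6). H2-Aa was at 13.6 and 339 CPM, 25.0-fold higher (22.9 to 27.4). H2-Ab1, the beta chain that pairs with H2-Aa, was at 6.23 and 163 CPM, 26.2-fold higher (23.0 to 30.0). These 3 genes made up nearly all class II UMIs in both libraries, and their intervals were far apart between the libraries.

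The remaining 4 members were much rarer in the same barcodes. H2-Eb1, the beta chain of the second class II isotype, was at 0.289 CPM (11 UMIs) and 3.30 CPM (142 UMIs), 11.4-fold higher (6.19 to 23.4). H2-DMa had 48 and 915 UMIs, or 1.26 and 21.3 CPM, 16.9-fold higher (12.6 to 23.0). H2-DMb1, its partner, had 7 and 206 UMIs, or 0.184 and 4.79 CPM, 26.0-fold higher (12.4 to 65.6). Ciita had a single UMI in the control library against 143 in GS_KO (3.32 CPM), a ratio of 126 with an interval of 22.3 to 5031. No member was lower in GS_KO. Summed, the 7 genes stood at 46.3 CPM in control (1764 UMIs) and 1362 CPM in GS_KO (58616 UMIs), 29.4-fold higher (28.0 to 30.8). All 7 were at least 2-fold higher, beside 13.5% of the 13688 genes with at least 20 UMIs over both libraries. Since the members were chosen on this contrast, nothing is read from that share.

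Barcodes of at least 1000 UMIs gave a difference of like size on far fewer UMIs. Cd74 was at 19.7 CPM (43 UMIs) in control and 515 CPM (1258 UMIs) in GS_KO, 26.1-fold higher (19.3 to 36.3). H2-Aa was at 6.87 CPM (15 UMIs) and 286 CPM (700 UMIs), and H2-Ab1 at 6.87 CPM (15 UMIs) and 124 CPM (303 UMIs). H2-DMa had 10 and 35 UMIs, 3.13-fold higher (1.51 to 7.08), the smallest difference of the members with a value there. Ciita had 3 and 21 UMIs, a ratio of 6.25 (1.87 to 32.7). H2-Eb1 and H2-DMb1 had no UMI in control and 12 each in GS_KO. The bound against a floor of 3 UMIs over the control barcodes was 3.57-fold, which leaves out the counting error of the 12 UMIs. The sum was 39.4 and 958 CPM, 24.3-fold higher (19.6 to 30.5). H2-Eb1 and H2-DMb1 stayed under 20 UMIs, and the other 5 were all at least 2-fold higher, beside 13.2% of 10192 genes, a share that is again fixed by how the members were chosen.

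**Figure D1:**
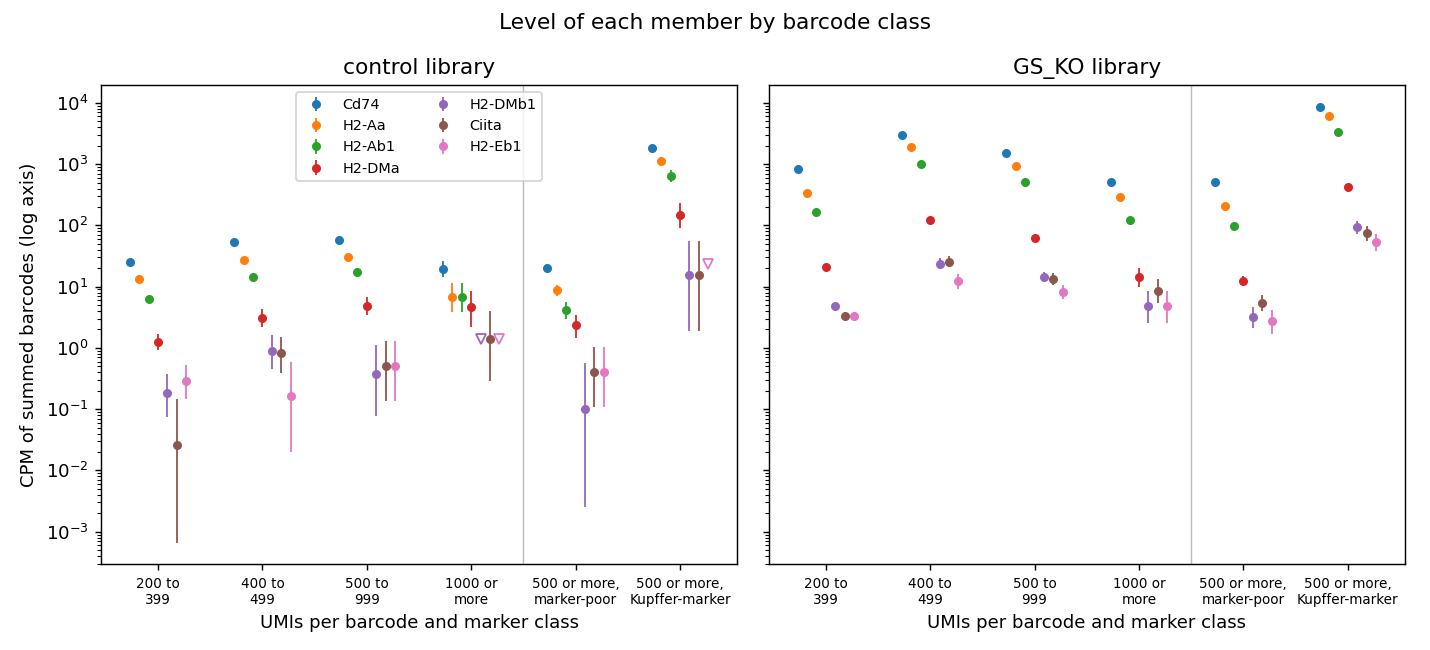
Level of each of the 7 genes in CPM (log axis) in the control (left) and GS_KO library (right), by UMIs per barcode and, right of the grey line, by Kupffer marker class. Points are sums over barcodes, bars are 95% Poisson intervals, and open triangles mark the floor of 3 UMIs for a gene with none. Every GS_KO value lies above the control value of the same class, and for each gene with a UMI there the Kupffer-marker class is the highest in its library.

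Which barcodes carried the RNA was then asked with 6 Kupffer cell markers: the lectin gene Clec4f, the complement receptor gene Vsig4, Cd5l and the complement genes C1qa, C1qb and C1qc. Among barcodes of at least 500 UMIs, those with at least 4 UMIs over these genes (Kupffer-marker barcodes) numbered 191 in the control library, 1.39% of them (1.21 to 1.61), and 1082 in the GS_KO library, 9.11% (8.60 to 9.65). Those with at most 1 (marker-poor barcodes) numbered 13355 and 10373, and 146 and 416 had 2 or 3. Median depth was near the same: 574 and 605 UMIs in Kupffer-marker barcodes, 664 and 679 in marker-poor ones. All 6 markers were present in the Kupffer-marker barcodes of both libraries, at 10705 CPM in sum in control and 12741 CPM in GS_KO. The class was set by these genes, so their presence does not test whether the barcodes are Kupffer cells. Within that sum Clec4f was lower in GS_KO (2533 and 1569 CPM), Vsig4 was similar (1121 and 1041 CPM) and the C1q genes were higher (C1qb 1968 and 3072 CPM). Hepatocyte marker RNA made up 7.26% and 6.54% of all UMIs in these barcodes, so no barcode holds Kupffer cell RNA alone. Glul, at 110 CPM (14 UMIs) and 96.9 CPM (74 UMIs), was close in both libraries there, unlike in small barcodes.

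In Kupffer-marker barcodes, class II RNA per barcode was about 5 times higher in the GS_KO library. Cd74, the most counted member, had 232 UMIs in control (1819 CPM, 1593 to 2069) and 6605 in GS_KO (8649 CPM, 8442 to 8860), 4.75-fold higher (4.17 to 5.44). A Cd74 UMI was found in 59.7% of control barcodes (52.4 to 66.7) and 97.8% of GS_KO barcodes (96.7 to 98.6). The shares did not overlap within counting error, and nearly every GS_KO barcode was positive. H2-Aa had 143 and 4664 UMIs, or 1121 and 6107 CPM, 5.45-fold higher (4.61 to 6.48). At least 1 H2-Aa UMI was present in 43.5% and 93.8% of barcodes. H2-Ab1 had 82 and 2599 UMIs, or 643 and 3403 CPM, 5.29-fold higher (4.25 to 6.68), and was found in 30.9% and 83.6% of barcodes. The folds of these 3 genes had overlapping intervals, so counting error does not separate the alpha chain, its beta chain and the invariant chain.

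H2-DMa, the alpha chain of the peptide exchanger, had 19 UMIs in control (149 CPM) and 323 in GS_KO (423 CPM), 2.84-fold higher (1.79 to 4.78). That interval overlaps the one for Cd74 but lies mostly under it. H2-DMb1 had 2 and 71 UMIs, a ratio of 5.93 (1.58 to 49.9). Ciita also had 2 UMIs in control against 57 in GS_KO (74.6 CPM), a ratio of 4.76 (1.26 to 40.2), and was found in 1.05% of control barcodes (0.127 to 3.73) and 5.08% of GS_KO barcodes (3.85 to 6.57). H2-Eb1 had none in 191 control barcodes, for which the exact interval allows up to 1.91% of barcodes with an H2-Eb1 UMI. That says nothing of barcodes that express it uncaught. In GS_KO it had 41 UMIs (53.7 CPM, 38.5 to 72.8), beside an upper limit of 28.9 CPM in control. The bound against the floor of 3 control UMIs was 2.28-fold, which leaves out the counting error of the 41 UMIs.

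Together the members had 480 UMIs in control and 14360 in GS_KO Kupffer-marker barcodes, or 3764 and 18804 CPM, 5.00-fold higher (4.56 to 5.48). Any member was found in 76.4% (69.8 to 82.3) and 99.2% (98.4 to 99.6) of these barcodes. All 7 were at least 2-fold higher, H2-Eb1 only by its bound against the floor of 3 UMIs. The others also had an interval that left out equality, a stricter rule under which H2-Eb1 was counted by that bound alone. Of 6525 genes, 13.6% met the first and 4.64% the stricter rule. The median log2 ratio was 2.25 over the members and 0.06 over all genes measured. The rule that chose the members used this contrast, and H2-Eb1, H2-DMa, H2-DMb1 and Ciita had under 20 UMIs in control and so passed through GS_KO, so neither figure supports them. With at least 6 marker UMIs the Ciita interval reached equality (log2 ratio 1.54, −0.40 to 4.63) and the H2-Eb1 bound fell under 2-fold (log2 0.75), as it did after thinning to 500 UMIs (0.96). In the 12 control and 107 GS_KO Kupffer-marker barcodes of at least 1000 UMIs the H2-Aa log2 ratio was 3.27 (2.03 to 4.90) beside 2.45 in the full set.

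The 5-fold difference in Kupffer-marker barcodes is much smaller than the 29.4-fold difference in small barcodes, and Kupffer marker RNA differed between the libraries as well. In barcodes of 200 to under 400 UMIs the 6 markers were at 107 CPM in control and 644 CPM in GS_KO, 6.02-fold higher. Per 100 Kupffer marker UMIs there were 43.3 class II UMIs in control and 212 in GS_KO, 4.89-fold more (4.61 to 5.18). The same ratio in Kupffer-marker barcodes was 35.2 and 148, 4.20-fold more (3.77 to 4.67), and in barcodes of at least 1000 UMIs it was 50 and 192, 3.84-fold more (2.94 to 5.03). By arithmetic the 29.4-fold difference in small barcodes is the product of 6.02-fold more Kupffer marker RNA and 4.89-fold more class II RNA per marker UMI. This split holds for any genes used as the divisor and does not show which cells the class II RNA came from. In the small barcodes alone, more cells of a type and more RNA per cell cannot be told apart. The higher marker RNA runs beside Kupffer-marker shares of 1.39% and 9.11%, and a difference in the livers cannot be told apart from one in the cells recovered from each.

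Over the sets of barcodes with at least 200 UMIs, Cd74 in the GS_KO library was highest in Kupffer-marker barcodes (8649 CPM), followed by barcodes of 400 to under 500 UMIs (2950 CPM) and those with 2 to 3 marker UMIs (2779 CPM), whose intervals overlap, and then by those of 500 to under 1000 UMIs (1540 CPM). Barcodes of 200 to under 400 UMIs followed at 827 CPM. Those of at least 1000 UMIs (515 CPM) and the marker-poor ones (508 CPM) were lowest and did not differ beyond counting error. In the control library the order was Kupffer-marker (1819 CPM), 2 to 3 marker UMIs (573 CPM), 500 to under 1000 UMIs (57.0 CPM) and 400 to under 500 UMIs (52.9 CPM), the last pair with overlapping intervals. The lowest were barcodes of 200 to under 400 UMIs (24.8 CPM), marker-poor ones (20.5 CPM) and those of at least 1000 UMIs (19.7 CPM), each overlapping the next within counting error. Sets by size and by marker share barcodes, so they are not independent. The class of 400 to under 500 UMIs gave the widest gap between the libraries among the classes by size, 99.3 and 5995 CPM for the summed members (60.4-fold), and also the widest gap in Kupffer markers, at 227 and 3260 CPM (14.3-fold). Per marker UMI its class II fold was 4.21 (3.93 to 4.52).

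Class II level followed the number of Kupffer marker UMIs within each library. In the control library the summed level was 32.2 CPM with no marker UMI, 165 CPM with 1, 1146 CPM with 2 to 3, 3245 CPM with 4 to 5, 3819 CPM with 6 to 9 and 4706 CPM with 10 or more. In the GS_KO library the same classes stood at 755, 1284, 5570, 12670, 17451 and 23934 CPM. Both series ran upward without a break, but in the control library neighbours from 4 UMIs on had overlapping intervals (2767 to 3781, 3307 to 4388 and 3892 to 5640 CPM), while in GS_KO all neighbours were apart. The fold between the libraries was 23.5 with no marker UMI and 7.79 with 1. It was 4.86 (4.04 to 5.89) with 2 to 3 and 3.90 (3.33 to 4.60) with 4 to 5, the classes just outside and just inside the limit that defines a Kupffer-marker barcode. It then stood at 4.57 (3.97 to 5.29) and 5.09 (4.24 to 6.16). From 2 marker UMIs upward the fold therefore stayed between 3.90 and 5.09.

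**Figure D2:**
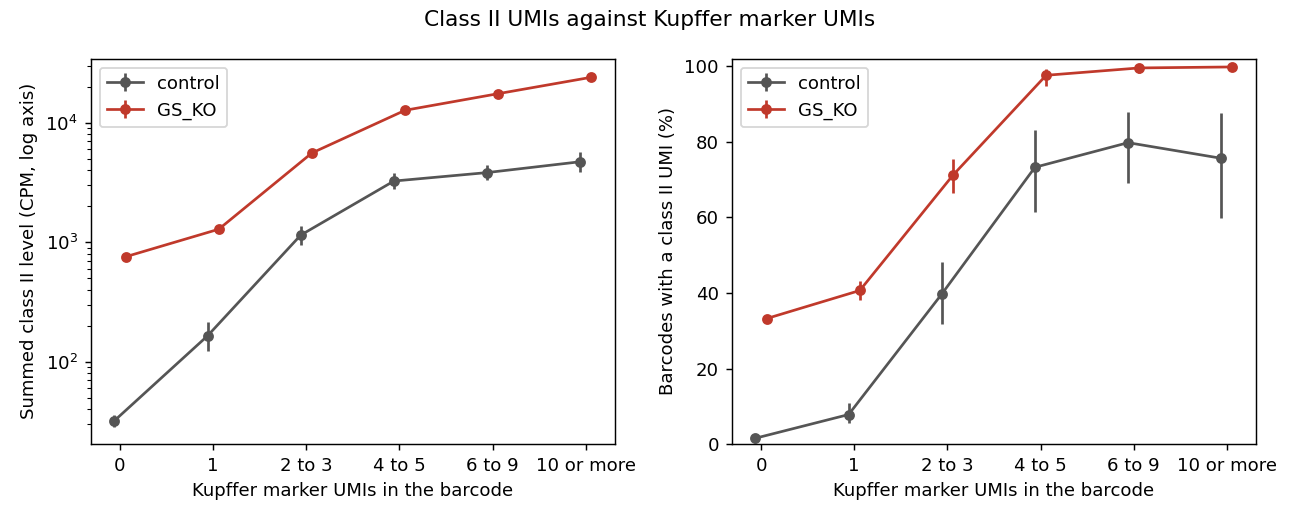
Summed class II level in CPM (left, log axis) and share of barcodes with any class II UMI in percent (right) against the number of Kupffer marker UMIs in the barcode, for barcodes of at least 500 UMIs. Bars are exact 95% intervals. The GS_KO points lie above the control points throughout, and the gap on the left is widest at 0 marker UMIs (32.2 against 755 CPM).

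The difference was seen across the distribution of Kupffer-marker barcodes and not only in a few rich ones. Each barcode was thinned at random to 500 UMIs so that depth was equal, which left out none. The mean was then 2.09 class II UMIs in control and 10.4 in GS_KO, and the median 1 and 10. The middle 90% of control barcodes ran from 0 to 7 UMIs and of GS_KO barcodes from 2 to 22. After thinning, 28.3% of control barcodes had no class II UMI against 1.66% of GS_KO barcodes, and 20 or more were found in none of the control and 9.24% of the GS_KO barcodes. The ranges overlap, but the control median of 1 lies under the 5% point of the GS_KO barcodes, which is 2. Without thinning, 6 of 191 control and 725 of 1082 GS_KO barcodes had at least 10, and the richest held 24 and 52.

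**Figure D3:**
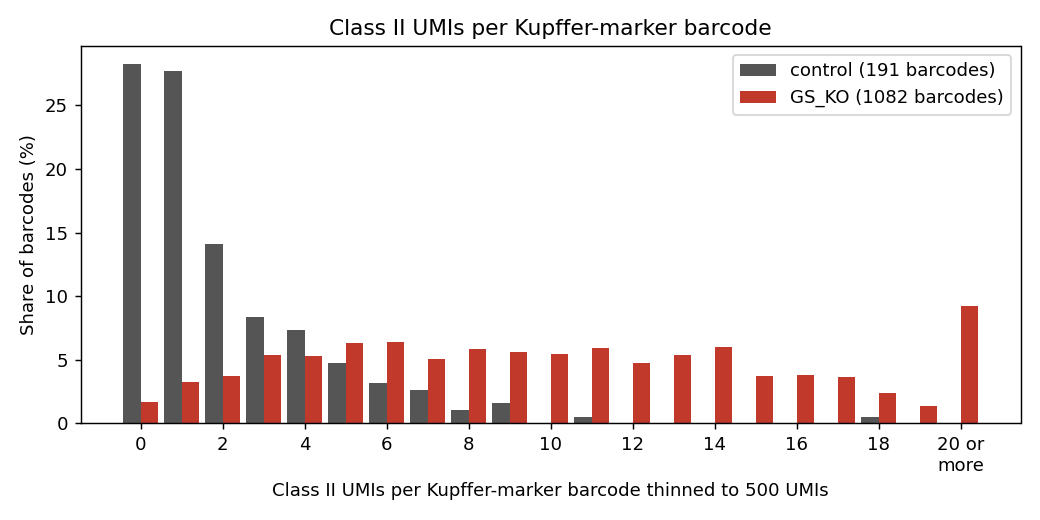
Share of Kupffer-marker barcodes in percent by number of class II UMIs after each barcode was thinned to 500 UMIs, with 20 or more pooled. The control library (191 barcodes) peaks at 0 and 1, and the GS_KO library (1082 barcodes) is spread broadly around its median of 10.

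Members were found together in single barcodes. After thinning, Cd74, H2-Aa and H2-Ab1 all had a UMI in 24 control Kupffer-marker barcodes (12.6%) and 754 GS_KO ones (69.7%). At least 4 members were found in 5 control barcodes, and no control barcode had 5 or more. In GS_KO 229 barcodes had 4 members, 29 had 5 and 2 had 6, and none had all 7. In marker-poor barcodes the trio was together in 2 of 13355 control and 100 of 10373 GS_KO barcodes.

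Ciita was seen too rarely for single barcodes to be sorted by it. In GS_KO Kupffer-marker barcodes the 55 with a Ciita UMI had 21710 CPM (20268 to 23227) of the other 6 members, and the 1027 without had 18570 CPM (18257 to 18886). Another member was found in 98.2% of the former and 99.1% of the latter, at median depths of 610 and 605 UMIs. Per barcode the former held 0 to 39 UMIs of the other members (median 15) and the latter 0 to 52 (median 12), so they overlapped widely. The intervals leave out the spread between barcodes, and the difference was not tested. Nearly all barcodes of the second set had class II RNA although no Ciita RNA was caught in them. The 2 control barcodes with Ciita held 6 UMIs of other members, all in 1 of them.

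Among markers of other immune cells in the Kupffer-marker barcodes, the monocyte list was higher in GS_KO, the dendritic cell and B cell lists overlapped between the libraries within counting error, and the plasma cell list was lower. Of 8 monocyte markers, 3 were detected in control (78.4 CPM in sum) and 8 in GS_KO (293 CPM), led by Plac8 and Cx3cr1, with Ccr2, Ly6c2, Chil3, Ms4a4c and F13a1 at 0 in control. Of 12 dendritic cell markers, 4 and 9 were detected, at 39.2 and 49.8 CPM, and Flt3, Cd209a and Ccr7 were at 0 in both libraries. Of 10 B cell markers, 2 and 6 were detected, at 173 and 244 CPM, nearly all of it Bank1, and Ms4a1 and Pax5 were at 0 in both. The 6 plasma cell markers were at 847 and 244 CPM, and 108 control UMIs of them lay in just 2 barcodes. In the barcodes with no UMI of any of these 4 lists, 160 control and 749 GS_KO, the class II sum was 3669 and 18404 CPM, a log2 ratio of 2.33 (2.18 to 2.48) beside 2.32 in the full set. Cd74 was at 1720 and 8625 CPM there and H2-Aa at 1147 and 5952 CPM. The ratio was thus as large without those barcodes, a check that was added after the data had been seen. A UMI of the monocyte list was caught in only 4.19% of control and 16.0% of GS_KO Kupffer-marker barcodes. Cells of that kind can therefore remain among barcodes without such a UMI, and their share in the difference was not tested. No doublet caller was applied.

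Marker-poor barcodes, all with hepatocyte marker RNA, gave the next question: whether class II RNA occurred outside Kupffer-marker barcodes. Cd74 was at 20.5 CPM (202 UMIs) in control and 508 CPM (4100 UMIs) in GS_KO. H2-Aa was at 8.71 and 206 CPM and H2-Ab1 at 4.15 and 96.8 CPM. Summed over the 7, the levels were 36.6 and 835 CPM, 22.8-fold higher (20.5 to 25.5), and a class II UMI was found in 1.80% (1.58 to 2.04) and 34.4% (33.5 to 35.3) of barcodes. All 7 were at least 2-fold higher, beside 14.4% of 12528 genes, and nothing is read from that since the contrast chose them.

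These levels lay at or under those of all small barcodes of the same library, which serve as the measure of free RNA in the droplets. Had every UMI of the marker-poor barcodes come from that pool, 457 class II UMIs would stand in control and 10986 in GS_KO, against 361 and 6735 observed, or 0.789 and 0.613 of that number. With free RNA held to the median of all barcodes (352 and 304 UMIs per barcode), the observed UMIs were 1.66 and 1.57 times the expected. In Kupffer-marker barcodes they were 81.2 and 13.8 times the number expected had all UMIs been free. The small barcodes are not free of Kupffer-marker ones: in GS_KO, 1396 of them had at least 4 marker UMIs and held 11854 of the 58616 class II UMIs. In control 233 did and held 361 of 1764. Small barcodes with at most 1 marker UMI, 116033 in control and 140612 in GS_KO, held 1149 and 42491 class II UMIs. From these alone the expected numbers would be lower. The control count of 361 would then lie above its expected number, and the GS_KO count of 6735 still under its own. The positive share of marker-poor barcodes is therefore not read as class II expression in hepatocytes or as a difference between hepatocytes of the 2 mice, and where these UMIs came from was not tested. Large barcodes as a whole were also at 0.851 and 0.703 of the all-free number.

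Ciita was the member whose count stood above that level in marker-poor barcodes of both libraries, with intervals apart in GS_KO only. It had 44 UMIs in GS_KO, where 26.8 would be expected had all UMIs been free (5.45 CPM, 3.96 to 7.32, beside 3.32 CPM, 2.80 to 3.91, in small barcodes). In control it had 4 where 0.259 would be, a number that rests on 1 UMI in small barcodes. The control levels were 0.405 CPM (0.110 to 1.04) and 0.0263 CPM (0.000665 to 0.146), and these intervals overlap. H2-DMa had 23 in control, where 12.4 would be, but 100 in GS_KO where 171 would be. Of the 44 GS_KO marker-poor barcodes with a Ciita UMI, 45.5% (30.4 to 61.2) had another member, beside 34.1% (33.2 to 35.0) of those without. Of the 4 such control barcodes none did.

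The makeup of the class II UMIs also differed between barcode classes. In GS_KO there were 70.6 H2-Aa UMIs per 100 Cd74 UMIs (68.0 to 73.3) in Kupffer-marker barcodes and 68.3 (65.5 to 71.2) in barcodes of 200 to under 400 UMIs with at least 4 marker UMIs. The ratio was 40.5 (38.3 to 42.9) in marker-poor barcodes, 41.0 (40.2 to 41.8) in all small barcodes and 33.8 (33.0 to 34.6) in the small ones with at most 1 marker UMI. In GS_KO the marker-poor value thus lay at that of all small barcodes and far under that of the Kupffer-marker ones. It lay above that of the small barcodes with at most 1 marker UMI, the like set. In control the ratio was 61.6 (49.7 to 76.2) in Kupffer-marker barcodes, 42.6 (32.7 to 55.1) in marker-poor ones and 54.7 (49.0 to 60.9) in small ones, and these intervals overlap. H2-Ab1 ran alike, with 39.3 UMIs per 100 of Cd74 in GS_KO Kupffer-marker barcodes and 19.0 in marker-poor ones. H2-Eb1 was scarce beside H2-Ab1 in GS_KO, with 1.58 UMIs per 100 in Kupffer-marker barcodes, 2.82 in marker-poor ones and 2.02 in small ones. H2-DMb1 gave 22.0 UMIs per 100 of H2-DMa in GS_KO Kupffer-marker barcodes and 22.5 in small ones.

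**Figure D4:**
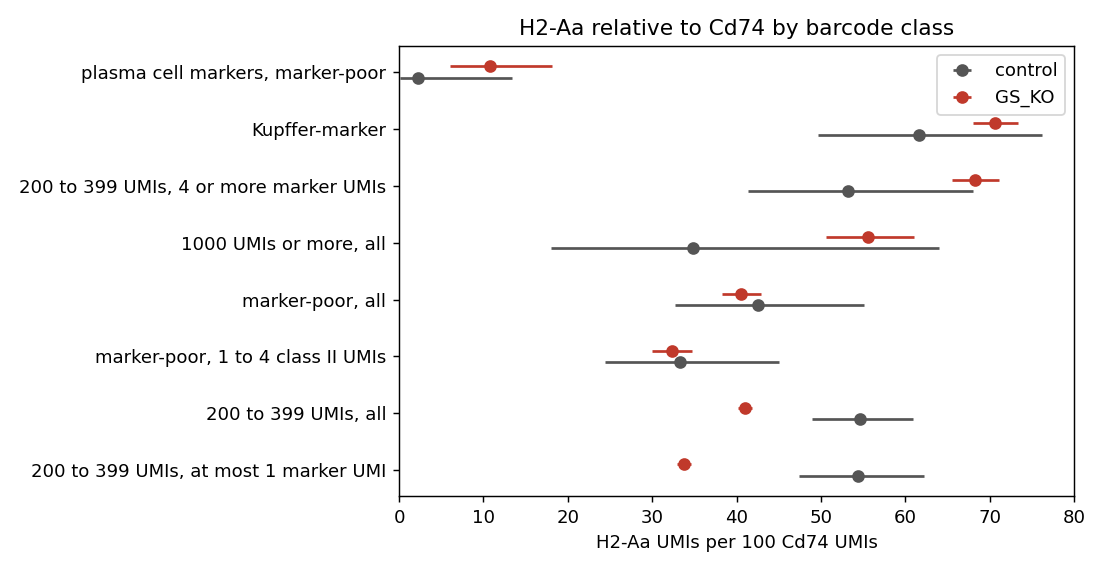
H2-Aa UMIs per 100 Cd74 UMIs with exact 95% intervals in sets of barcodes of the control and GS_KO libraries. In GS_KO both sets with 4 or more Kupffer marker UMIs lie at 68.3 and 70.6, barcodes of at least 1000 UMIs at 55.6, all marker-poor barcodes at 40.5, all of 200 to under 400 UMIs at 41.0, and those with plasma cell markers at 10.8.

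A small number of marker-poor barcodes was rich in class II. In GS_KO, 99 of 10373 had at least 10 class II UMIs and held 1770 of the 6735 UMIs, or 26.3%, and in control 3 of 13355 did, with 49 UMIs. Their H2-Aa ratio in GS_KO was 64.4 (57.8 to 71.7) per 100 Cd74, close to that of Kupffer-marker barcodes, while barcodes with 1 to 4 class II UMIs had 32.3 (30.0 to 34.8). Of these 99, 41.4% had a UMI of the monocyte list, 28.3% of the dendritic cell list, 6.06% of the B cell list and 33.3% a single Kupffer marker UMI. In all GS_KO marker-poor barcodes these shares were 1.88%, 1.48%, 1.11% and 15.3%. The stellate list had a UMI in 13.1% of the 99 (14.5% of all), the endothelial list in 11.1% (7.44%) and the plasma cell list in 5.05% (1.82%). Since the 99 were set apart by the members themselves, these values describe them only.

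Marker-poor barcodes with at least 3 plasma cell marker UMIs, 38 in control and 99 in GS_KO, held Cd74 with little of the peptide-binding chains: 44 Cd74 and 1 H2-Aa UMI in control, and 148 and 16 in GS_KO. That is 2.27 (0.0563 to 13.3) and 10.8 (6.02 to 18.1) H2-Aa UMIs per 100 of Cd74, beside 42.6 and 40.5 in all marker-poor barcodes, and Ciita had none in either. In control these 38 barcodes held 44 of the 202 Cd74 UMIs of all marker-poor barcodes. Only 3 GS_KO barcodes met the dendritic cell rule, and they had 52497 CPM of class II (41752 to 65162), the highest level of any class, with no such barcode in control. Marker-poor barcodes with sinusoidal endothelial markers were at 54.1 CPM (17.6 to 126) in control and 935 CPM (744 to 1161) in GS_KO, and those with stellate cell markers at 72.7 CPM (46.6 to 108) and 1253 CPM (1097 to 1425). The small barcodes, some of which hold Kupffer markers, had 46.3 and 1362 CPM, and neither class stood above that level in GS_KO. The like set is the small barcodes with at most 1 marker UMI, which held 42491 of the 58616 GS_KO class II UMIs and had a lower level. The stellate class lay above this set in both libraries beyond counting error, and the endothelial class did not. All marker-poor barcodes had 36.6 CPM (32.9 to 40.5) in control and 835 CPM (815 to 855) in GS_KO. The stellate class lay above these in both libraries, while the endothelial class overlapped them within counting error. Where the class II UMIs of the stellate class came from was not tested.

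The other genes of the pathway were compared in Kupffer-marker barcodes from 8 lists, with at least 20 UMIs over both libraries needed for a gene to count. Among the other class II chains only H2-DMb2 had enough, with 2 and 49 UMIs, a log2 ratio of 2.03 (0.10 to 5.12). H2-Oa had 0 and 4 UMIs and H2-Ob 1 and 4. Of the 9 enzymes of antigen and invariant chain processing, none was at least 2-fold higher and 1 was at least 2-fold lower, with a median log2 ratio of 0.46. Ctss, the protease that trims the invariant chain, was at 698 and 1332 CPM, a log2 ratio of 0.93 (0.62 to 1.26), and Ifi30, a lysosomal thiol reductase, at 361 and 704 CPM, or 0.97 (0.53 to 1.43). Ctsb, a cysteine protease, was at 1945 and 1528 CPM (−0.35), and Ctsd, an aspartic protease, at 996 and 432 CPM (−1.20, −1.50 to −0.90).

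Of the 4 measured of 9 promoter factors none differed 2-fold, with a median log2 ratio of −0.40. The acetyltransferase genes Crebbp (−0.27, −0.96 to 0.48) and Ep300 (−0.49, −1.32 to 0.43) and the X box partner Creb1 (−0.30, −1.50 to 1.12) all had intervals across 0. Rfx5, Rfxap, Rfxank, Nfya and Nfyb had fewer than 20 UMIs. Of the ubiquitin ligases that remove class II from the surface, March1 was at 0.34 (−0.53 to 1.35) and March8 at 1.70 (−0.25 to 4.80).

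Of 7 measured genes that induce Ciita, 4 were at least 2-fold higher in GS_KO, 3 of them with an interval leaving out 0, and none was lower, with a median log2 ratio of 1.05. Over all 6525 genes 13.6% were at least 2-fold higher and 5.72% lower, and 4.64% and 3.97% under the stricter rule. Every inducer counted as higher, and every interferon gamma target so counted below, had under 20 UMIs in control and passed the filter through GS_KO, so these counts are a description and support nothing. Irf1, a transcription factor of the interferon gamma response, had 4 and 109 UMIs, a log2 ratio of 2.19 (0.79 to 4.09). Spi1, the myeloid factor PU.1, had 10 and 190 (1.67, 0.76 to 2.75), and Ifngr1, a chain of the interferon gamma receptor, had 10 and 124 (1.05, 0.12 to 2.15). Jak1, a kinase on that receptor, was at 204 and 229 CPM (0.17). Ifng itself had no UMI in the Kupffer-marker barcodes of either library.

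Interferon gamma targets other than class II gave 10 of 15 at least 2-fold higher, 5 with an interval leaving out 0, and none lower, with a median of 1.37. The 5 were the chemokine gene Cxcl9 (1 and 78 UMIs, 3.70, 1.18 to 9.02), the GTPase genes Irgm1 (1 and 40, 2.74) and Gbp3 (2 and 73, 2.61), and the immunoproteasome genes Psmb8 (9 and 188, 1.80, 0.85 to 2.95) and Psmb9 (7 and 130, 1.63, 0.55 to 2.98). Iigp1, another GTPase gene and the most counted of the list, was at 227 and 291 CPM (0.35, −0.21 to 0.97). Of the genes for costimulation, Cd274, which encodes the inhibitory ligand PD-L1, had 0 and 65 UMIs. Its bound against the floor of 3 control UMIs was 3.62-fold, without the counting error of the 65 UMIs. Cd86 had 9 and 77 (0.51, −0.48 to 1.70) and Cd40 had 1 and 7. Of the list of class II repression, the repressor gene Bcl6 had 1 and 59 UMIs (3.30, 0.77 to 8.63), Il10ra, a receptor chain, had 9 and 50 (−0.11), and Prdm1 had 0 and 10. Cd274, Bcl6, H2-DMb2 and March8 also had under 20 UMIs in control and passed the filter through GS_KO, so their ratios are a description only.

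**Figure D5:**
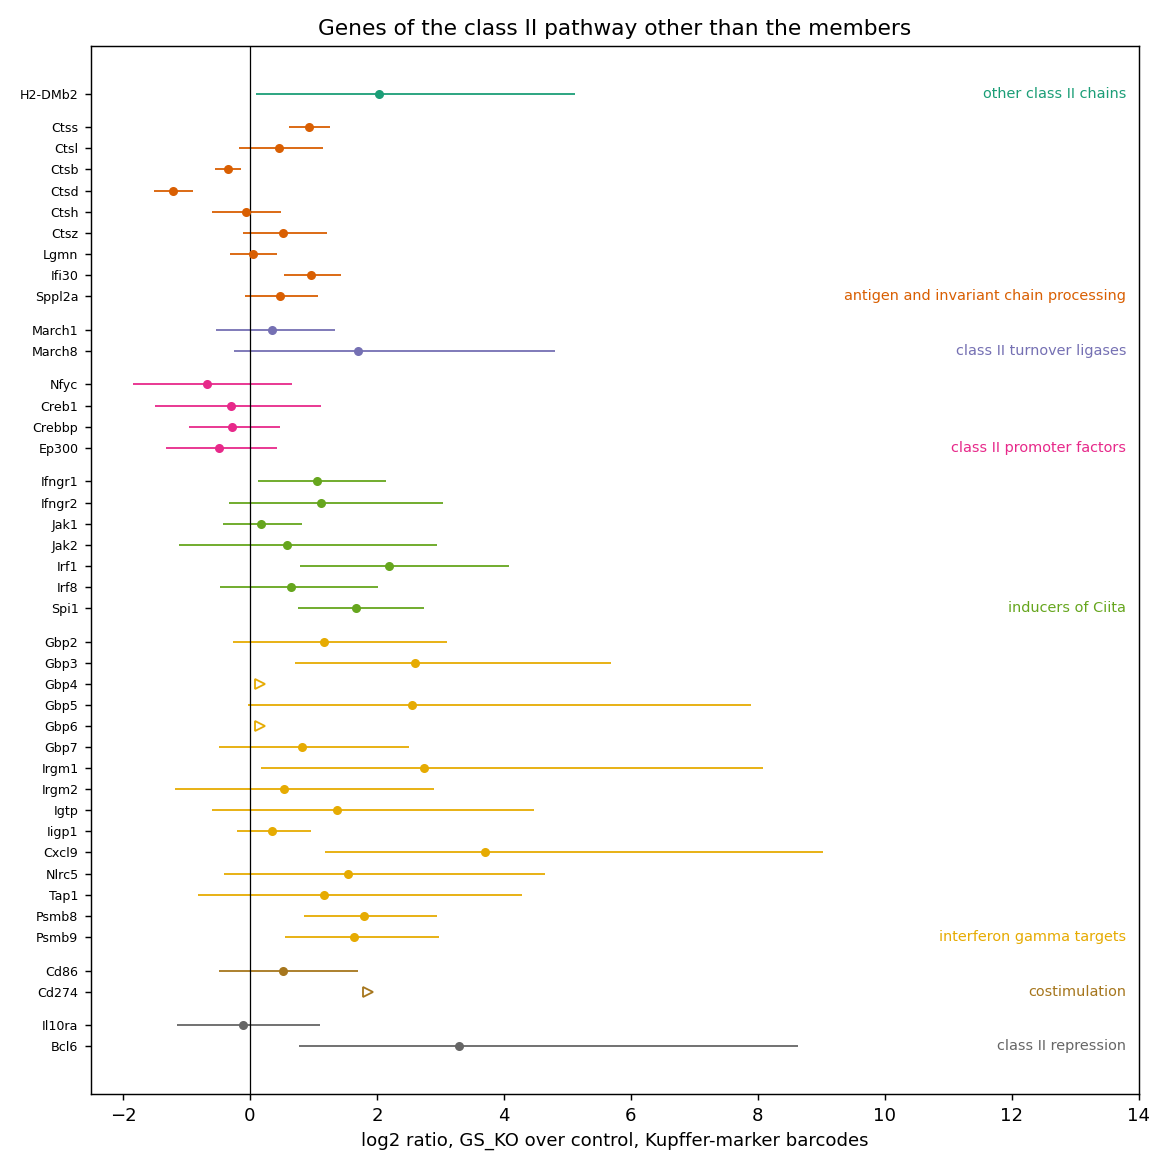
Log2 ratio of GS_KO over control with exact 95% intervals in Kupffer-marker barcodes for the measured genes of the 8 lists, coloured by list. Open triangles are lower bounds for genes with no control UMI. Irf1 (2.19) and Cxcl9 (3.70) lie to the right of 0, Ctsd (−1.20) to the left, and the 4 promoter factors have intervals across 0.

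Over 12 points (both libraries, barcodes of 500 to under 1000 and of at least 1000 UMIs, each with 0 to 1, 2 to 3 and at least 4 Kupffer marker UMIs) the genes whose log2(CPM + 5) was most like the summed members, among 9770, were Ctsc (Pearson r = 0.954), Mpeg1 (0.948), Lyz2 (0.936), Tmsb4x (0.933), Fcer1g (0.930), Unc93b1 (0.927), C1qb (0.926), Pla2g7 (0.919), Sh3bgrl3 (0.916) and Fyb (0.913). The points share libraries and marker classes, and C1qb is itself 1 of the markers that define them, so r is a description. In Kupffer-marker barcodes Ctsc, which encodes the protease cathepsin C, was at 408 and 646 CPM and Lyz2, the macrophage lysozyme gene, at 2055 and 2780 CPM, smaller differences than those of Cd74, H2-Aa and H2-Ab1. Against the sum of the other members, Cd74, H2-Ab1 and H2-Aa had r of 0.992, 0.988 and 0.985, and the rare members Ciita, H2-DMb1, H2-DMa and H2-Eb1 0.805, 0.797, 0.719 and 0.689.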

How the data were processed

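Per the file headers, the authors deposited 1 table of raw UMI counts per library made with Cell Ranger 8.0.0, on mm10 per the submitters' processing notes. The selection of barcodes is not stated in these sources. Values are whole counts that were not normalized, over 32285 genes, and the smallest barcode held 119 (control) and 123 (GS_KO) UMIs. Members were matched by symbol and placed by Ensembl ID in the GENCODE annotation of mm10.

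UMIs were summed over classes of barcodes and divided by all UMIs of the class (CPM). Intervals are at 95% and cover counting error only. A count of 0 was set to 3 UMIs over the class to bound a fold, and such a bound leaves out the counting error of the other count. Ratios over all genes needed at least 20 UMIs over both libraries. With 1 mouse per group no test was made, and the ratio code was tested on simulated data. Thinning drew 500 UMIs per barcode without replacement (seed 1). Named were all members, the 3 most counted genes of each pathway list with any that differed 2-fold with an interval leaving out 0, and the 10 genes most like the sum among those with at least 100 UMIs. The members, marker lists and pathway lists were chosen with earlier results of these data known. Of the listed names, 4 do not occur in the files. Of the inducers of Ciita, 1 listed gene is not reported here and is left out of the counts. Barcodes found in both libraries were kept, and doublets were not treated. Python 3.11.15, numpy 2.4.6, scipy 1.17.1, pandas 2.3.3 and matplotlib 3.10.9 were used.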

Additional observations from a re-analysis of the deposited data

Results flagged for a closer look

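Barcodes of fewer than 200 UMIs entered no comparison of the report, other than the alternative that sums all barcodes under 500 UMIs, and also carried class II RNA above the control level. The 11607 such barcodes of the GS_KO library had 1311 CPM over the 7 genes (2561 UMIs), and the 7544 of the control library had 68.6 CPM (85 UMIs). Cd74 was at 829 and 39.6 CPM there, and the Kupffer markers at 620 and 101 CPM.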

How the results depend on the processing

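No ratio with UMIs in both libraries changed direction. As log2 ratios, the sum in small barcodes (4.88) was 4.65 at 200 to under 300 UMIs, 5.04 at 300 to under 400, 4.63 without Cd74 and 2.29 per Kupffer marker UMI. In Kupffer-marker barcodes (2.32) it was 2.85 at 1000 UMIs or more (12 and 107 barcodes), 2.47 with 3 marker UMIs, 2.53 with 2 UMIs of Clec4f, Vsig4 and Cd5l, 2.02 with free RNA taken off and 2.07 per marker UMI. In marker-poor barcodes (4.51) it was 5.06 at 300 UMIs or more, 4.19 at 1000 or more, 4.71 without B cell, dendritic cell or plasma cell markers, 4.34 without Cd74 and 4.16 with free RNA taken off. In barcodes of at least 1000 UMIs (4.60) it ran from 4.49 to 4.79. For the settings that moved a share, Kupffer-marker barcodes with a class II UMI (76.4% and 99.2%) were 58.3% of control barcodes at 1000 UMIs, 69.0% and 97.7% with 3 marker UMIs, 99.6% of GS_KO barcodes with 6, 65.0% and 94.7% with the 3 genes, and 98.3% of GS_KO barcodes when thinned to 500 UMIs. Marker-poor shares (1.80% and 34.4%) were 0.929% and 27.8% at 300 UMIs, 1.51% and 33.4% without the 3 marker lists, 1.38% and 26.7% when thinned, and 33.2% in GS_KO with 0 marker UMIs. The cause of these shifts was not tested. The other 36 recomputed sums and shares, and 12 ratios of single members, stayed within the counting interval of the reported one. In Kupffer-marker barcodes of at least 1000 UMIs the log2 ratios were 2.55 for Cd74 (2.25 in the full set), 3.27 for H2-Aa (2.45) and 2.74 for H2-Ab1 (2.40). H2-Eb1 in Kupffer-marker barcodes (bound 1.19) had bounds of 0.75 with 6 marker UMIs and 0.96 when thinned, both under 2-fold, and the Ciita interval reached equality with 6 marker UMIs. At 1000 UMIs the 12 control Kupffer-marker barcodes held no UMI of H2-Eb1, H2-DMa, H2-DMb1 or Ciita. With the control set to the floor of 3 UMIs, the bounds for these genes lay under 1-fold. They give no direction and were left out. Leaving out barcodes shared by both libraries, leaving out other immune markers and dividing by Kupffer marker UMIs were chosen after seeing the data. No paired analysis was possible because each group is 1 mouse and the labels give no replicate numbers, and no replicate could be left out. Depth limits Ciita, H2-DMb1 and H2-Eb1 most, with 0 to 2 control UMIs in Kupffer-marker barcodes.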
